A study of Homo sapiens with 9 samples.

Results

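The KRAB zinc finger gene clusters are 4 stretches of the genome in which genes of the ZNF family lie side by side. Their rule is one of position, with no measured value in it: 3 regions of chromosome 19 and 1 of chromosome 7 on build hg19: chr19:20000001-24200000, called 19p here, chr19:52300001-54000000 (proximal 19q), chr19:56300001-58900000 (distal 19q) and chr7:62900001-64900000 (7q). A bin of 40 kb belonged to a cluster when its midpoint lay inside it, which gave 263 of the 77404 bins of the genome, namely 105, 43, 65 and 50 for 19p, proximal 19q, distal 19q and 7q. Of these, 255 carried a value in every library, among 69621 such bins of the genome, and the counts per cluster were then 104, 43, 65 and 43.

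The libraries are in situ Hi-C, which joins and sequences pairs of DNA fragments that lie close together in the nucleus, from IMR90 cells, a line of human diploid lung fibroblasts. All cells carried the stably introduced ER:HRAS(G12V) fusion, an oncogenic HRAS that acts once 4-hydroxytamoxifen (4OHT) is added. The 3 growing libraries are cells without that induction, and the label of growing replicate 3 also names an MSCV vector. The 2 RIS libraries are cells in RAS-induced senescence after 6 days of 100 nM 4OHT. Since every growing and RIS library shares the transgene, the comparison is between induced and uninduced cells of one line, and no library of cells without the construct was used here. The study calls the replicates biological, but nothing in the labels says that they came from separate cultures. Each p-value is therefore taken to measure the spread between these libraries only.

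Depth was 154318992, 175410468 and 180775315 contacts for growing replicates 1, 2 and 3, against 109967509 and 150689993 for RIS replicates 1 and 2. Contacts between chromosomes made up 7.04 to 7.56% of all contacts in the growing libraries and 9.60 to 9.81% in the RIS libraries. By the study's alignment summary, growing replicate 3 and RIS replicate 2 held more duplicate reads than the other 3 libraries. The main differences are therefore also given within the libraries of few and of many duplicates. Either set holds a single RIS library, so these values have no spread and describe direction and size only. Hi-C on a bulk of cells cannot tell a contact made in fewer cells from a contact made less often in each cell, and RNA was not measured in these libraries, so the fibroblast identity could not be checked against marker genes.

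KRAB zinc finger proteins form a large family of transcriptional repressors in mammals. A KRAB domain at one end recruits TRIM28, which in turn brings SETDB1, the enzyme that writes the repressive histone mark H3K9me3, and HP1 proteins, which bind that mark. An array of C2H2 fingers at the other end reads DNA, often that of transposable elements. The genes arose by repeated tandem duplication, so neighbours in a cluster resemble each other, and the clusters themselves are known in many cell types as domains of H3K9me3 and HP1.

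The annotation bore out the gene content of the 4 clusters. ZNF genes made up 33 of the 36 protein-coding genes of 19p, 38 of 47 in proximal 19q, 47 of 86 in distal 19q and 11 of 12 in 7q. Together these were 129 of the 515 ZNF genes of the genome, or 25.0%, of which 249 lie on chromosome 19. From the first to the last start the ZNF genes ran from ZNF253 to ZNF726 in 19p, from ZNF577 to ZNF813 in proximal 19q, from ZNF787 to ZNF837 in distal 19q and from ZNF722 to ZNF92 in 7q. Pseudogenes were most numerous in 19p with 109 and in 7q with 66, against 27 and 33 in proximal and distal 19q.

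The repeated part of these genes is shown by a stretch of 3 fingers from 1 gene of each cluster, since contacts are later split by whether a bin holds the linker between such fingers. Each stretch lies within a single coding exon and was read from hg19 on the strand of the gene. The capitals mark the DNA that encodes the linker between neighbouring fingers, found as CANACNGGNGANAANCCN on both strands, and 1 finger with its linker spans 84 bases. The stretches are chr19:21131990-21132241 on the plus strand for ZNF85 (19p), chr19:53668894-53669145 on the minus strand for ZNF665 (proximal 19q), chr19:58578642-58578893 on the plus strand for ZNF135 (distal 19q) and chr7:63726711-63726962 on the plus strand for ZNF679 (7q).
ZNF85: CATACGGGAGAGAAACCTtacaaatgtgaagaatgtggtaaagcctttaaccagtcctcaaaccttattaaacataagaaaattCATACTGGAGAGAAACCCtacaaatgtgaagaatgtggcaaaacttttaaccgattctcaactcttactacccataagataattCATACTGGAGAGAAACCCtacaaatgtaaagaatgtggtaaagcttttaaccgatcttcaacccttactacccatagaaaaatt
ZNF665: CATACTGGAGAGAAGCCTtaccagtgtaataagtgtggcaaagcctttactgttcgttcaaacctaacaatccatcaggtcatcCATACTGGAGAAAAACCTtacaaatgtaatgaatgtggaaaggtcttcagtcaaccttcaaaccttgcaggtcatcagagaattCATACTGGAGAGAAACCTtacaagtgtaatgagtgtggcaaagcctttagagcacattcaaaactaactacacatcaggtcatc
ZNF135: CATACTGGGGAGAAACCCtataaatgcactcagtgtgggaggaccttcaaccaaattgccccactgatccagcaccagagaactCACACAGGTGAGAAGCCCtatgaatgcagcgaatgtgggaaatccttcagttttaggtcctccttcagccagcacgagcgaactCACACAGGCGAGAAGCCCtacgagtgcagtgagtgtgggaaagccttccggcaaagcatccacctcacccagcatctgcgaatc
ZNF679: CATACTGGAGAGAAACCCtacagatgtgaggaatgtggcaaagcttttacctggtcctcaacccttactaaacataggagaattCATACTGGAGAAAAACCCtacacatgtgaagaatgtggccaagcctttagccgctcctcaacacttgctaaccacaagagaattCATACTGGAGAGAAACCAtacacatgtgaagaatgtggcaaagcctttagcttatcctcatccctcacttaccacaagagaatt
Base by base, the 19p stretch of ZNF85 and the 7q stretch of ZNF679 were identical at 82.9% of positions. ZNF665 was identical to each of them at 70.2%, and ZNF135 to each of the other 3 at 58.3%. The most alike pair of stretches thus came from different chromosomes.

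The linker DNA was dense in the clusters, as in other ZNF clusters of chromosome 19. It occurred 350 times in 19p, 404 in proximal 19q, 200 in distal 19q and 82 in 7q, which was 84.1, 235, 76.9 and 47.7 matches per Mb against 1.25 per Mb over all bins. At least 1 match fell in 45 of the bins of 19p (43.3%), 35 of proximal 19q (81.4%), 32 of distal 19q (49.2%) and 14 of 7q (32.6%), against 1.17% of all bins. In 3 further ZNF clusters of chromosome 19, described below as comparison clusters, it was found at 207, 145 and 208 matches per Mb and in 82.8, 62.8 and 88.9% of bins, above 19p, distal 19q and 7q. The 4 clusters held 29.7% of the 3492 matches of the genome. Among the genes, all 33 of 19p and all 11 of 7q carried a linker, with a median of 7 and 5 per gene, against 37 of 38 (median 7) in proximal 19q and 34 of 47 (median 2) in distal 19q. The KRAB domain itself was not searched for.

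The clusters also differed in base composition, coverage and compartment. Mean GC content was 41.1% in 19p and 41.3% in 7q, and 45.3% in distal 19q. Before balancing, which evens out coverage between bins, the median bin of 19p received 84.1% of the contacts of the median bin of the genome, against 58.5%, 46.9% and 47.9% in proximal 19q, distal 19q and 7q. The share was within a few points of the same between growing and RIS cells in each cluster, at 85.7 and 83.2% in 19p and 48.8 and 48.0% in 7q. Compartment A is the open, gene-active part of a chromosome and B the closed part. By the growing libraries 0 of the 104 bins of 19p were in A, with 9 of 43 in proximal 19q, 23 of 65 in distal 19q and 3 of 43 in 7q.

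Contact is given below as the log2 of the mean observed over expected contact (log2 O/E). The expected value is the mean at the same distance on the same chromosome and in the same library, and for pairs between chromosomes 7 and 19 the mean over all such pairs, so 0 is an average contact. RIS minus growing is the difference of the 2 group means, with a two-sided exact permutation test over libraries. With 3 against 2 libraries that exact permutation test cannot go below p = 0.1, and 26 of the 43 region values of the 4 clusters sat at this smallest p, with no adjusted value under 0.165. The words higher and lower therefore describe values. Values of comparison regions stand beside these and are not among the 43.

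Contact inside the clusters was highest in 19p, and it was the only one of the 4 in which both RIS libraries lay above all growing libraries. Its log2 O/E was 1.17, 1.07 and 1.03 in the growing and 1.36 and 1.47 in the RIS libraries, listed here and below in the order of their replicate numbers. The groups did not overlap: the mean was 1.09 ± 0.07 (SD, n = 3) in growing and 1.42 ± 0.07 (n = 2) in RIS cells, a difference of 0.32 (exact permutation p = 0.1) or 1.25-fold. The difference was 0.24 among the libraries of few duplicates, 0.43 among those of many, and 0.31 once bins with a linker match were left out. The contact itself, without an expected value, differed less. Over the 3801 pairs of 40 kb bins of 19p in the limma fit described below, up to 2 Mb apart, its median log2 difference was 0.07.

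The other 3 clusters had a lower log2 O/E inside and did not share that difference. The clusters differ in length, and 7q has the expected value of its own chromosome, so these levels are not like for like. The share of contacts kept inside the cluster, given below, was higher in RIS cells in proximal and distal 19q and not in 19p. Without bins that hold a linker match, the difference in log2 O/E was negative within proximal and positive within distal 19q. Proximal 19q stood at 0.47, 0.48 and 0.43 in the growing and 0.46 and 0.46 in the RIS libraries, which overlapped (exact permutation p = 1). Distal 19q stood at 0.37, 0.35 and 0.40 against 0.35 and 0.36, which also overlapped (exact permutation p = 0.5). The 7q cluster went the other way, with 0.23, 0.22 and 0.30 in the growing and 0.07 and 0.10 in the RIS libraries, a difference of -0.17 without overlap (exact permutation p = 0.1). For reference, 3 further ZNF clusters of chromosome 19 were measured in the same manner: comparison cluster 1 at 11.6 to 12.8 Mb (ZNF653 to ZNF791), comparison cluster 2 at 36.6 to 38.4 Mb (ZNF565 to ZNF573) and comparison cluster 3 at 44.3 to 45 Mb (ZNF283 to ZNF180). Their inner contact was higher in RIS cells by 0.07, 0.11 and 0.16, each without overlap (exact permutation p = 0.1). In the contact itself, by the same limma fit, their median log2 differences were 0.12, 0.13 and 0.18, against 0.07 in 19p. The larger difference of 19p thus held for the ratio to the expected value and not for the contact itself.

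Between the clusters of chromosome 19, the pair farthest apart was the one that differed. 19p and distal 19q lie on different arms of the chromosome, and their log2 O/E was 1.02, 0.96 and 0.90 in growing against 1.23 and 1.38 in RIS cells. Both RIS libraries were above all growing libraries, with a difference of 0.35 (exact permutation p = 0.1) or 1.27-fold. It rested on 1539, 1583 and 1566 contacts in the growing and 1327 and 1800 in the RIS libraries. Without bins that hold a linker match the difference was 0.45, and it ranged from 0.27 to 0.42 as each library was left out.

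Neither pair that involves proximal 19q showed such a difference. 19p with proximal 19q stood at 0.45, 0.47 and 0.28 in the growing and 0.22 and 0.51 in the RIS libraries (exact permutation p = 0.7), and the RIS libraries spanned the growing ones. Proximal with distal 19q stood at 0.86, 0.72 and 0.62 against 0.74 and 0.78 (exact permutation p = 0.7), again with overlap. All 3 pairs of clusters were nonetheless above the average contact for their distance in every library. B bins of chromosome 19 outside the clusters, at least 2 Mb apart, stood at a mean of 0.86 with each other in growing and 1.08 in RIS cells. Both pairs with proximal 19q had lower means than this, and 19p with distal 19q had higher ones, at 0.96 and 1.31.

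Contacts with the comparison clusters separated comparison cluster 2 from the other two. 19p with comparison cluster 1 was near average in growing cells, at -0.18, -0.00 and 0.06, and far below it in RIS cells, at -1.60 and -1.37, a difference of -1.44 without overlap (exact permutation p = 0.1). 19p with comparison cluster 3 was below average in all libraries, at -1.41, -1.43 and -1.20 against -2.27 and -2.34, a difference of -0.96 (exact permutation p = 0.1). With comparison cluster 2 the difference was 0.18, also without overlap. Proximal 19q differed by -0.65, -0.00 and -0.70 with comparison clusters 1, 2 and 3, and distal 19q by -0.33, -0.01 and -0.59, with overlap for comparison cluster 2 alone. The compartments of the comparison clusters differ, since 20 of the 29 bins of comparison cluster 1 and 9 of the 18 of comparison cluster 3 were in A, against 3 of the 43 of comparison cluster 2.

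**Figure D1:**
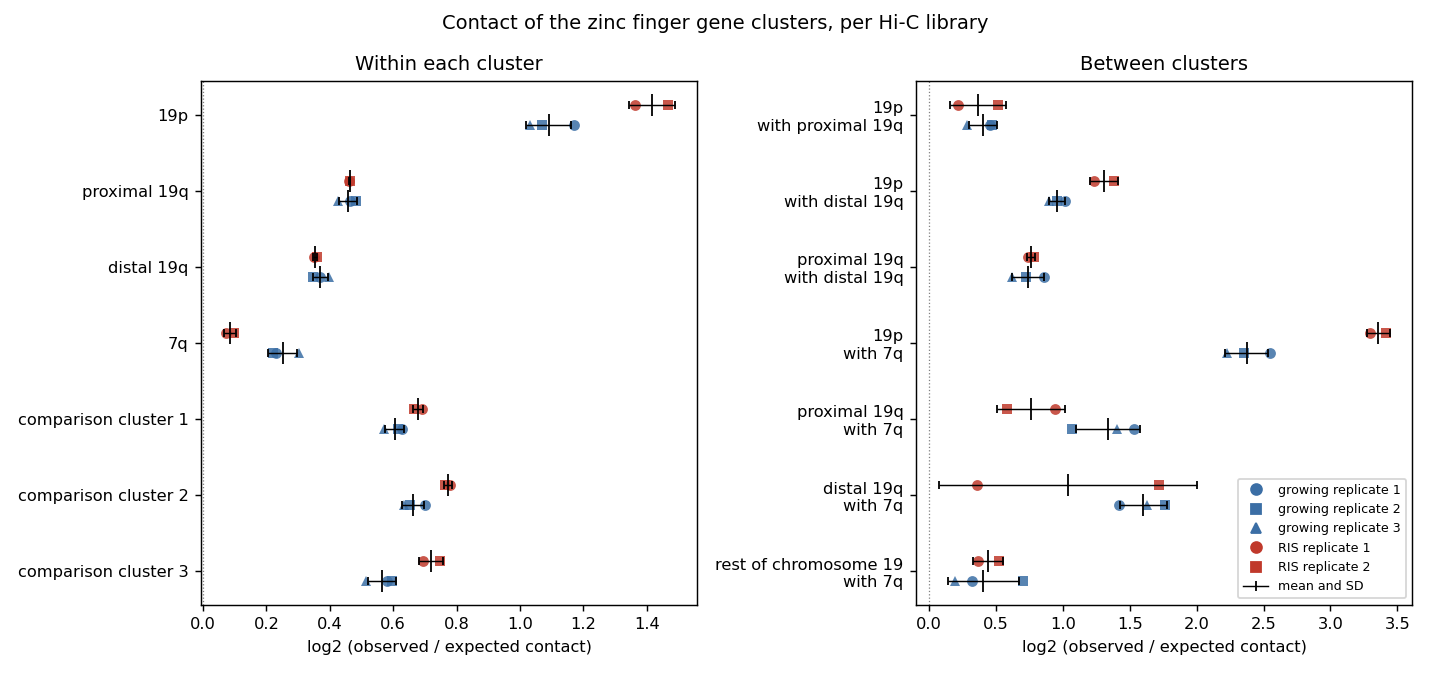
Log2 observed over expected contact (horizontal axis) within 7 zinc finger gene clusters (left) and between clusters (right). Blue marks are the 3 growing and red marks the 2 RIS libraries, with the mean and SD of each group in black, and the dotted line at 0 is the average contact. The RIS marks lie above all growing marks within 19p, within comparison clusters 1, 2 and 3, between 19p and distal 19q and between 19p and 7q. They lie below all growing marks within 7q and between proximal 19q and 7q.

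Of the chromosome 19 clusters, 19p had the highest contact with 7q. The bins between 19p and its centromere, given below, were about as high. The log2 O/E of 19p with 7q was 2.55, 2.35 and 2.23 in the growing and 3.30 and 3.42 in the RIS libraries. The groups did not overlap: the mean was 2.38 ± 0.16 (SD, n = 3) against 3.36 ± 0.09 (n = 2), a difference of 0.98 (exact permutation p = 0.1). In linear terms the contact was 5.19 times the average of the 2 chromosomes in growing and 10.2 times in RIS cells, a 1.97-fold difference. These values rest on few contacts, 100, 129 and 122 in the growing and 134 and 294 in the RIS libraries, over 4472 pairs of bins.

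The difference held in size when single libraries were left out, ranging from 0.91 to 1.07. It was 0.85 among the libraries of few duplicates and 1.19 among those of many, and 1.00 without the highest pair of bins. With an expected value that takes the total of each bin between chromosomes into account it was 0.58 (exact permutation p = 0.2). In comparison the rest of chromosome 19 with 7q differed by 0.04 (exact permutation p = 0.9). The 3 chromosome 19 clusters together differed by 0.60 with 7q, by 0.15 with the rest of chromosome 7 and by 0.31 with its A bins, each without overlap (exact permutation p = 0.1 each). With the B bins of chromosome 7 they differed by 0.09 with overlap (exact permutation p = 0.5). The difference with A bins was not particular to the clusters. B bins of chromosome 19 outside them differed by 0.27 with the A bins of chromosome 7, without overlap (exact permutation p = 0.1). 19p was also higher in RIS cells with other chromosomes. With the highest partner bins, on chromosomes 1 and 4 and described below, it went from 16.9 to 30.7 and from 15.8 to 27.2 times the average.

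The clusters on 19q were also above average with 7q, but on very few contacts. Proximal 19q with 7q stood at 1.53, 1.07 and 1.40 in the growing and 0.94 and 0.58 in the RIS libraries, a difference of -0.57 without overlap (exact permutation p = 0.2), with 19, 14 and 21 contacts against 6 and 10. Distal 19q with 7q stood at 1.42, 1.76 and 1.63 against 0.35 and 1.72, which overlapped (exact permutation p = 0.4). Comparison clusters 1 (with overlap), 2 and 3 (without) were lower with 7q in RIS cells by 1.40, 0.62 and 1.20 on the log2 scale.

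The high contact of 19p was not limited to the 7q cluster. The balanced bins of the 2 Mb to the left of 7q, on the side of the centromere, had a log2 O/E with 19p of 2.77, 2.67 and 2.71 in the growing and 3.76 and 3.44 in the RIS libraries, a difference of 0.88 without overlap (exact permutation p = 0.1). The 2 Mb to the right of 7q differed by 0.10 (exact permutation p = 0.7). On the other side of the pair, the few balanced bins between 19p and its centromere had 2.56, 2.18 and 2.06 with 7q in the growing and 3.49 and 3.25 in the RIS libraries, a difference of 1.11 (exact permutation p = 0.1). The left flank of 19p with 7q differed by 1.40 with overlap (exact permutation p = 0.5), on 10 contacts in all growing and 18 in all RIS libraries. The 19p and 7q clusters themselves differed by 0.98.

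Profiles in tiles of 2 Mb placed these contacts along the chromosomes. Of the 79 tiles of chromosome 7 the 3 highest with 19p in growing cells were at 60 to 62 Mb, 62 to 64 Mb and 56 to 58 Mb, and they kept ranks 1, 2 and 3 in RIS cells. Their log2 O/E went from 2.85 to 3.79, from 2.63 to 3.46 and from 2.43 to 2.96. The tile at 64 to 66 Mb, which holds the end of 7q, went from 1.26 to 2.29, and from rank 9 to rank 4. By size of the difference it was only rank 12, and the largest difference, 1.73, was at 142 to 144 Mb, where contact with 19p was below average in growing cells at -1.13 and 0.60 in RIS cells.

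Along chromosome 19 both clusters were high in tiles beside the centromere. Of 29 tiles, the 7q cluster was highest at 20 to 22 Mb (2.52 in growing and 3.49 in RIS cells), 22 to 24 Mb (2.26 and 3.20) and 24 to 26 Mb (2.15 and 3.39), and lower in RIS cells most of all at 12 to 14 Mb (0.03 and -2.37). The 19p cluster itself was high at 8 to 10 Mb (1.49 and 1.45) and at 56 to 58 Mb (1.20 and 1.72). The former stretch lies outside the 4 clusters and the 3 comparison clusters, and its ZNF genes, if any, were not counted here. Its largest difference was 0.67 at 28 to 30 Mb, just beyond the centromere on the long arm. The contact of 19p was lower in RIS cells most of all with the end of the short arm, where the tiles at 4 to 6, 2 to 4 and 0 to 2 Mb differed by -2.06, -1.96 and -1.86. Tiles were given as a description and were not tested.

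**Figure D2:**
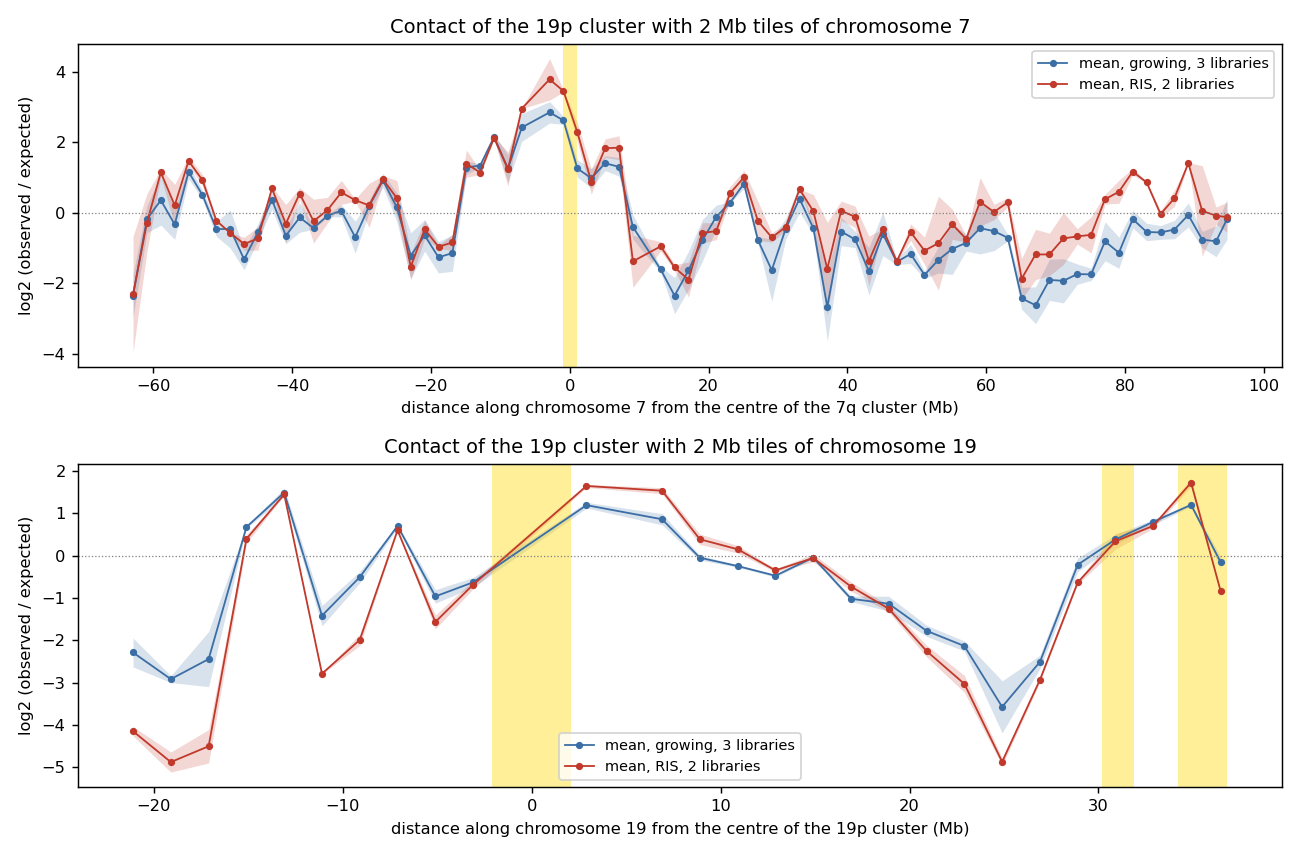
Log2 observed over expected contact (vertical axis) of 19p with tiles of 2 Mb along chromosome 7 (top, distance from the centre of 7q) and chromosome 19 (bottom, distance from the centre of 19p). Lines are group means of 3 growing (blue) and 2 RIS (red) libraries, shading is the mean ± SD of each group, and yellow bands mark the clusters. On chromosome 7 the highest tiles of both groups lie in and just left of 7q, at 2.85 in growing and 3.79 in RIS cells.

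The 19p and 7q clusters share linker DNA, so their contacts were split by it. The 630 pairs of bins in which both had a linker match stood at 2.86, 2.77 and 2.81 in the growing and 4.09 and 4.85 in the RIS libraries, a difference of 1.66 without overlap (exact permutation p = 0.1). The 2131 pairs in which one bin had a match stood at 2.71, 2.37 and 1.97 against 3.46 and 3.20, a difference of 0.98. The 1711 pairs with no match in either bin stood at 2.16, 2.13 and 2.26 against 2.52 and 2.55, a difference of 0.35 without overlap (exact permutation p = 0.1). The last group rests on 20, 23 and 25 contacts in the growing and 19 and 23 in the RIS libraries.

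RIS replicate 2 was highest where both bins had a match, with 196 contacts against 61 in RIS replicate 1 and 39, 45 and 56 in the growing libraries. The same library held the highest single pairs, chosen after their values were seen: the bins of ZNF107 and of ZNF738 and ZNF493 shared 1 contact in each of the growing libraries, 1 in RIS replicate 1 and 8 in RIS replicate 2, and so did the bins of ZNF117 and of ZNF738 and ZNF493. A read from one ZNF gene can be placed on a close copy of it on the other chromosome, and the part of such placement in these values was not tested. Linker bins outside the pair were read as well. The 39 other linker bins of chromosome 7 with those of 19p differed by 0.19 with overlap (exact permutation p = 0.7). The linker bins of 7q with the other linker bins of chromosome 19 differed by 0.03 with overlap (exact permutation p = 1). With these other bins, the 7q bins without a match differed by -0.77 without overlap (exact permutation p = 0.1). Bins left of 7q without a match differed by 0.77 with the linker bins of 19p and by 0.98 with its other bins. A linker match does not measure how alike the sequences of a pair of bins are, so these values do not bear on such placement.

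**Figure D3:**
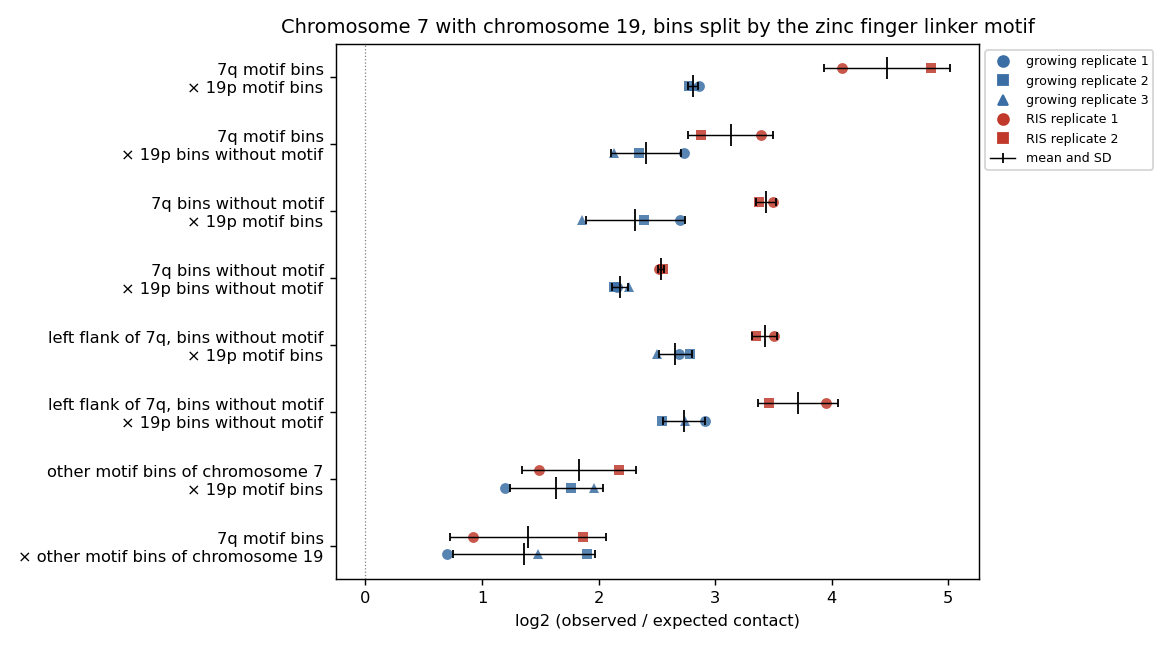
Log2 observed over expected contact (horizontal axis) of bins of chromosome 7 with bins of chromosome 19, split by whether each side holds the linker motif. Blue marks are the 3 growing and red marks the 2 RIS libraries, with the mean and SD in black. The gap between groups is 1.66 where both sides of 7q and 19p hold the motif and 0.35 where neither does, and the groups overlap in the lowest 2 rows, which pair the motif bins of one cluster with motif bins outside the other.

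Within their own chromosomes the clusters differed in their contact with A and B bins outside the cluster and its flanks. 19p with A bins stood at -2.05, -1.94 and -1.67 in the growing and -2.65 and -2.74 in the RIS libraries, a difference of -0.81 without overlap (exact permutation p = 0.1). With B bins it stood at 0.68, 0.65 and 0.56 against 0.84 and 0.92, a difference of 0.25 without overlap (exact permutation p = 0.1), although with an expected value taken over all chromosomes the latter was -0.20. The chromosome as a whole moved the same way, with -0.27 between A and B bins and 0.22 between B bins.

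Distal 19q shared the B side of this pattern and not the A side. Its log2 O/E with B bins was 1.19, 1.10 and 1.09 in the growing and 1.25 and 1.38 in the RIS libraries, a difference of 0.19 without overlap (exact permutation p = 0.1), which was -0.08 with the expected value over all chromosomes, and with A bins the difference was 0.01 with overlap. 7q with A bins differed by -0.15 without overlap (exact permutation p = 0.1) and with B bins by 0.06, also without overlap (exact permutation p = 0.2). Chromosome 7 as a whole differed by -0.23 between A and B bins and by 0.16 between B bins, both without overlap and larger in size than the values of 7q. Proximal 19q differed by 0.08 with A and by -0.04 with B bins, both with overlap.

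The contacts of each cluster with the up to 2 Mb on its sides were uneven. 19p with its right flank toward the centromere stood at 1.25, 1.21 and 1.12 in the growing and 1.67 and 1.62 in the RIS libraries, a difference of 0.45 without overlap (exact permutation p = 0.1), on 10 balanced bins. With its left flank, which lies in A with a mean A/B score of 0.81, the difference was -0.06 with overlap. Its sign changed under alternatives given at the end. 7q with its right flank, also in A at 1.03, stood at -0.88, -0.72 and -0.63 against -1.22 and -1.19, a difference of -0.46 without overlap (exact permutation p = 0.1), and with its left flank, in B at -1.33, at 0.70, 0.65 and 0.69 against 0.78 and 0.87, a difference of 0.14 without overlap (exact permutation p = 0.1). Distal 19q with its left flank stood at 0.503, 0.456 and 0.406 against 0.642 and 0.505, higher by 0.12 and barely without overlap (exact permutation p = 0.2). With the expected value over all chromosomes that difference was negative. Proximal 19q with its left flank differed by -0.06 with overlap. For proximal and distal 19q the right flanks differed by -0.16 and -0.39 without overlap (exact permutation p = 0.1 each), the latter on the 5 balanced bins of the 7 that lie between distal 19q and the end of the chromosome.

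**Figure D4:**
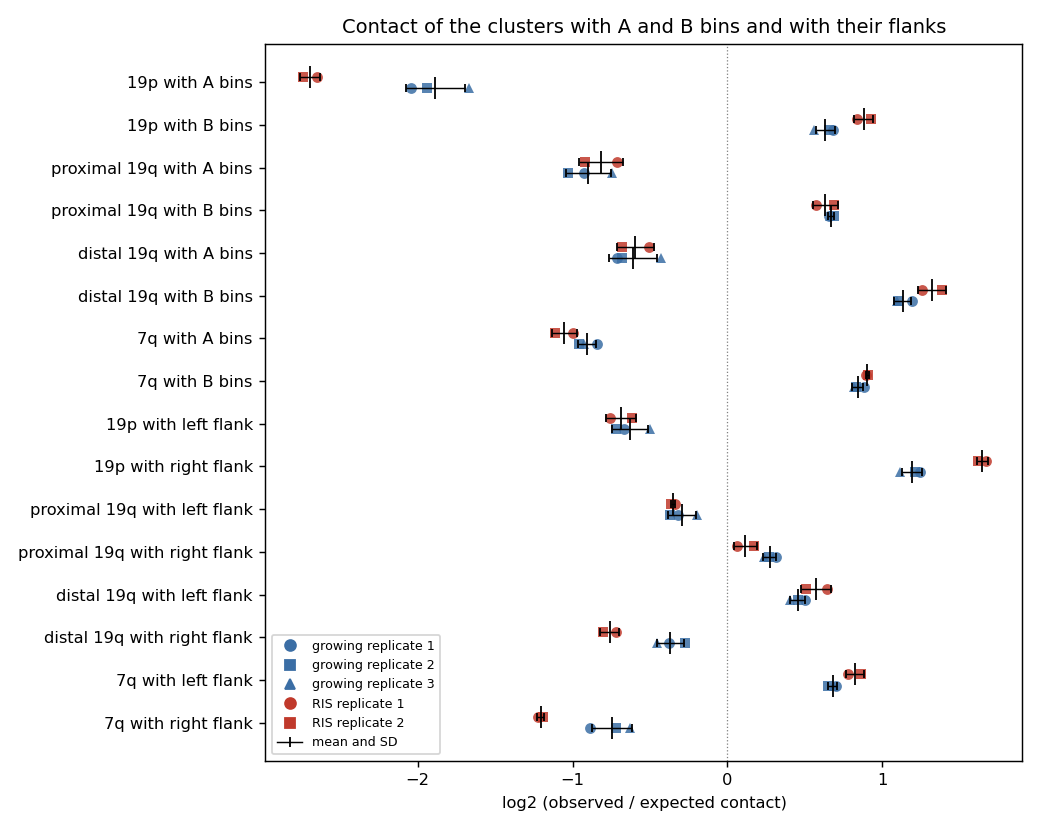
Log2 observed over expected contact (horizontal axis) of each cluster with A and B bins of its chromosome and with its left and right flanks of up to 2 Mb. Blue marks are the 3 growing and red marks the 2 RIS libraries, with the mean and SD in black and a dotted line at the average contact. 19p lies lower in RIS cells with A bins (-0.81) and higher with its right flank (0.45), and 7q lies lower with its right flank (-0.46).

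The share of contacts made with other chromosomes was higher in RIS cells in 19p and 7q and lower in the clusters on 19q. In 19p it was 12.6 ± 0.64% (SD, n = 3) in growing and 16.0 ± 0.22% (n = 2) in RIS cells, and in 7q it was higher by 2.49 percentage points from 9.53%, both without overlap. In proximal 19q it went from 11.6 to 10.1% and in distal 19q from 13.1 to 11.9%, also without overlap (exact permutation p = 0.1 for each of the 4). These are shares of the balanced values, which weigh every bin alike, and not of the recovered contacts as at the start. On that scale the genome as a whole went from 9.03 to 11.5%, chromosome 7 from 8.49 to 11.1% and chromosome 19 from 12.9 to 12.4%. The share of contacts kept inside the cluster was 66.9 and 73.2% in proximal 19q and 69.3 and 72.8% in distal 19q in growing and RIS cells, both without overlap, against 72.9 and 72.5% in 19p, with overlap. Comparison clusters 1, 2 and 3 went the way of the 19q clusters. Their share inside went from 72.5 to 80.2%, from 69.9 to 76.3% and from 62.6 to 70.0%, and their share with other chromosomes was lower in RIS cells, all without overlap.

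Single pairs of bins were then tested in fits over the whole genome, with the Benjamini-Hochberg adjustment at 5% over all pairs. limma on the balanced values was the main fit and voom on the recovered contacts was run beside it. Of the 7135 pairs of 40 kb bins within the clusters at distances up to 2 Mb, limma called 1 higher and 14 lower in RIS cells, where it called 0.0106% of all pairs of the genome higher and 0.0471% lower. All 14 had 0 contacts in both RIS libraries and at most 9 in any single growing library. The 1 higher pair had 0 in each growing library, against 1 and 3 in RIS cells. Each of the 15 thus passed the minimum on the mean value only through the group in which it had contacts, so the limma calls are given as counts and support nothing. For example, the pair with the smallest adjusted p, between chr7:63680001 and chr7:64280001 in 7q, had 3, 3 and 4 contacts in the growing and 0 and 0 in the RIS libraries (limma adjusted p = 0.0261, voom adjusted p = 0.393). With a pseudocount of 2 limma called 0 pairs. voom called 27 higher and 1 lower, where it called 0.343% and 0.16% of all pairs, and shared 0 calls with limma. The limma count of 15 became 0 without any 1 of the 5 libraries.

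The share that voom called higher among all members was near that of the genome. By cluster it called 15 of 887 pairs higher in proximal 19q (1.69%), 9 of 1600 in distal 19q (0.562%), 2 of 3801 in 19p and 1 of 847 in 7q, beside 1, 0.92 and 0.654% in comparison clusters 1, 2 and 3. Of the 27, 15 joined neighbouring bins. The first by adjusted p joined the bins that hold ZNF432 and ZNF841 and the next one, with ZNF616, at chr19:52560001 and chr19:52600001, with 163, 159 and 192 contacts in the growing and 150 and 216 in the RIS libraries at depths that differ (log2 difference 0.58, voom adjusted p = 0.00236). The next joined the bins of ZNF83 and ZNF600 (0.67, voom adjusted p = 0.00444).

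At distances beyond 2 Mb, in pairs of 200 kb bins, the share of member pairs called was near that of the genome. Of the 340 pairs within and between the chromosome 19 clusters limma called 4 higher and 1 lower, where it called 1.46% and 0.928% of all pairs of the genome, so the higher calls were no more frequent among the members than elsewhere. All 4 higher pairs joined 19p and distal 19q, where 144 pairs passed the minimum mean of 10. The median log2 difference of these 144 was 0.70, and since a pair could pass through the RIS libraries alone, neither that median nor the calls support a difference of the clusters. In 3 of the 4 called pairs the growing mean was under the minimum and the pair was tested only through the RIS libraries. The bin of ZNF724 and ZNF91 took part in 2 of them. With the bin at 56.2 Mb its contacts were 4, 6 and 6 in the growing and 10 and 13 in the RIS libraries (1.88 ± 0.30 SE, limma adjusted p = 0.0403), and this was the pair whose growing mean was above the minimum. With the bin of ZNF582, ZNF583 and ZNF667 they were 5, 7 and 6 against 15 and 11, a pair that passed through RIS alone (limma adjusted p = 0.0449). ZNF91 is known to repress SVA retrotransposons. The bin of ZNF253, ZNF93, ZNF682 and ZNF90 with that at 57.2 Mb had 4, 10 and 7 against 15 and 19 contacts and likewise passed through RIS alone (limma adjusted p = 0.0407), and ZNF93 is known to repress LINE-1 elements.

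The 1 lower pair joined proximal and distal 19q, at chr19:52800001 and chr19:56200001, with 21, 29 and 27 contacts in the growing and 3 and 8 in the RIS libraries (-2.41 ± 0.45 SE, limma adjusted p = 0.0494). voom called 28 of the 340 higher and 10 lower, where it called 9.3% and 4.52% of all pairs, again no more often than elsewhere, and all 5 limma calls were among them. These fits compare the contact itself and not its ratio to the expected value. The median of the 117 pairs of proximal with distal 19q past the minimum was -0.49, where their log2 O/E differed by 0.03 with overlap. Of 19p with distal 19q, on the same filtered pairs, voom called 25 of 144 higher and 0 lower, and of proximal with distal 19q 9 of 117 lower. The limma count of 5 became 0 without growing replicate 1, 2 or 3, 1 without RIS replicate 1 and 9 without RIS replicate 2, all lower in the last case. The voom count of 38 became 23, 24, 15 and 9 without growing replicates 2 and 3 and RIS replicates 1 and 2, with 15, 16, 12 and 6 higher pairs of 19p with distal 19q.

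**Figure D5:**
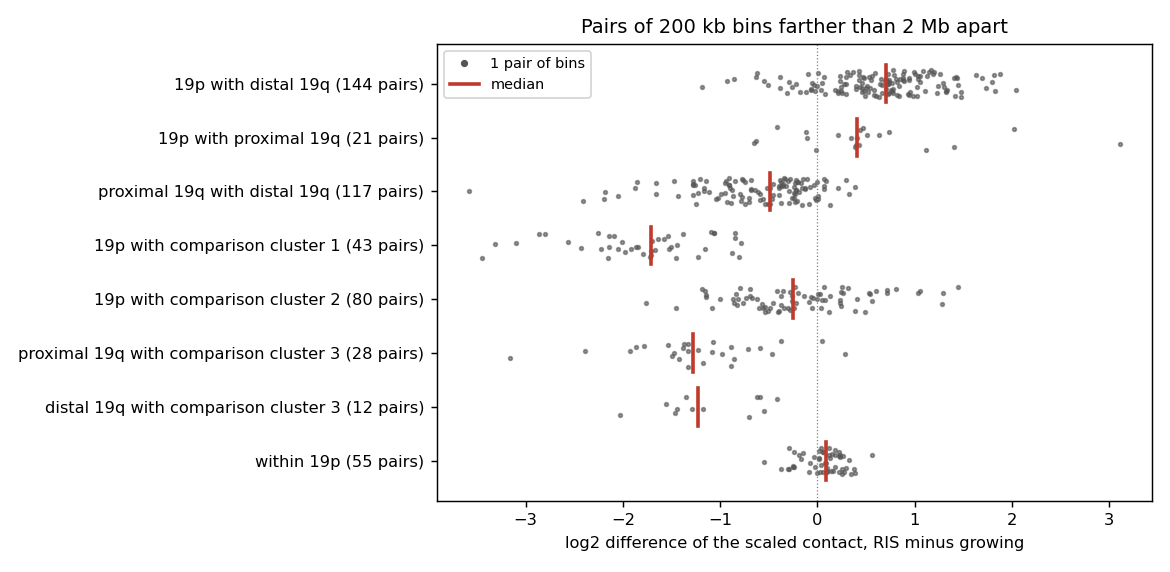
Log2 difference of the scaled contact, RIS minus growing (horizontal axis), of pairs of 200 kb bins at distances beyond 2 Mb, by pair of regions, from the limma fit over all pairs of the genome. Each point is a pair of bins past the minimum mean of 10 and the red bar is the median. Pairs of 19p with distal 19q centre on 0.70, those of proximal with distal 19q on -0.49 and those of 19p with comparison cluster 1 on -1.71. A pair could pass the minimum through either group alone, so these medians describe the pairs drawn and support no difference of the regions.

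The contact between the chromosomes could not be called pair by pair. Of 18 pairs of 1 Mb bins between the chromosome 19 clusters and 7q, limma called 0, as it called 0% of all pairs between chromosomes, and 2 were under an unadjusted p of 0.05, against 239867 of the 2745955 pairs of the genome. Both of these joined distal 19q and 7q and were lower in RIS cells, and 0 of the 8 pairs of 19p with 7q were among them. voom also called 0 of the 18, with 5 at an unadjusted p under 0.05 against 288611 over the genome, namely 4 of 19p with 7q, higher, and 1 of distal 19q with 7q, lower. Over all pairs voom called 0.416% higher and 0.0656% lower. In the limma fit the median log2 difference was 0.57 for 19p with 7q, -0.58 for distal 19q with 7q and -0.74 for proximal 19q with 7q.

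Contact with the other clusters was also taken bin by bin, where only the sign of the difference of means was counted. No such profile was made for other bins, so the counts have no background, and in most bins of 19p the groups overlapped. For each bin of a chromosome 19 cluster the log2 O/E with the other clusters of that chromosome was taken, and for each bin of 7q that with the 3 clusters of chromosome 19. It was higher in RIS cells in 75 of the 104 bins of 19p and lower in 29, with a median of 0.23 and a range from -1.18 to 1.18. In distal 19q 42 bins were higher and 23 lower (median 0.23), in proximal 19q 16 and 27 (median -0.09), and in the 30 bins of 7q with a value in every library 23 and 7 (median 0.77).

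The bins at the ends of these ranges were named by rule. In 19p the largest difference was in the bin of ZNF90 at 20.2 Mb, with 0.61, 0.76 and -0.11 in the growing and 1.49 and 1.70 in the RIS libraries, and in 7q in that of ZNF273, with -0.49, -0.23 and 2.05 against 2.72 and 3.92, on 7 and 19 contacts. In proximal 19q the bins of ZNF845 and ZNF577 were higher by 0.66 and 0.58, and in distal 19q the bins at 57.56 and 56.84 Mb, which hold no ZNF gene, by 0.83 each without overlap. The lowest differences of 19p were -1.18 and -1.13, in the bins of ZNF208 and ZNF675, where the groups overlapped. In distal 19q they were in the bins of ZNF444, with 0.99, 1.21 and -0.00 against -0.73 and -0.28, and of ZNF497 and ZNF837, with -1.21, and in proximal 19q in a bin without a ZNF gene at 52.72 Mb, with -0.61 and overlap, followed by that of ZNF578 and ZNF808, with -0.52. In 7q the lowest was that of ZNF727, with -0.66 and overlap.

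Insulation measures contact across a position, here the log2 mean contact within a window of 520 kb centred per chromosome, so that a lower score is a sharper border. It was tested with limma over all bins of the genome, where 30.9% of bins rose and 25% fell at an adjusted p under 0.05. In 19p 20 of 104 bins rose and 0 fell, which is below the genome's share in both directions. In proximal 19q 2 of 43 rose and 12 fell, in distal 19q 18 of 59 rose and 20 fell, and in 7q 9 of 36 rose and 10 fell. The comparison clusters 1, 2 and 3 had 12, 28 and 11 bins that rose and 3, 0 and 1 that fell, of 29, 43 and 18. The falls in proximal 19q were near the genome's share. The 91 calls over the 4 clusters became 60 without growing replicate 2 and 46 without RIS replicate 1.

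By gene, taken at the bin of its start, 5 ZNF genes of 33 rose and 0 fell in 19p, 3 of 38 rose and 11 fell in proximal 19q, 2 of the 41 with a score rose and 28 fell in distal 19q, and 3 of 11 rose and 4 fell in 7q. These counts stand beside 30.9% and 25% over all bins. Genes in 1 bin share its value and are counted each, so the 28 falls of distal 19q are not 28 bins: per bin that cluster had 20 falls of 59. In proximal 19q the largest fall was at ZNF665, whose stretch is printed above, with 0.14, 0.19 and 0.27 in the growing and -0.32 and -0.11 in the RIS libraries (-0.42, limma adjusted p = 0.00106), followed by ZNF347 (-0.38, adjusted p = 0.00153). In 7q the score fell at ZNF107, from -0.04, -0.01 and 0.07 to -0.32 and -0.41 (-0.37, adjusted p = 0.00043), and at ZNF138 (-0.35, adjusted p = 0.000398), and it rose at ZNF92, from 0.55, 0.47 and 0.44 to 0.85 and 0.72 (0.29, adjusted p = 0.00161). These genes and those that follow in the paragraph were singled out after their values were seen, except the first and last gene of each cluster.

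In distal 19q the score of ZNF548 fell from -0.13, -0.17 and -0.06 to -0.50 and -0.35 (-0.31, limma adjusted p = 0.00165), whereas that of ZNF444 rose by 0.22 (adjusted p = 0.00363). In 19p ZNF85 rose from 0.36, 0.35 and 0.39 to 0.49 and 0.54 (0.15, adjusted p = 0.00571). Of the genes at cluster ends ZNF577 fell by 0.17 (adjusted p = 0.0101), ZNF813 and ZNF787 rose by 0.13 and 0.17, and ZNF722 missed the threshold at 0.09 (adjusted p = 0.0504). Neither end of 19p passed the test, with -0.05 at ZNF253 (adjusted p = 0.353) and 0.09 at ZNF726 (adjusted p = 0.12), and ZNF837 had no score. ZNF548 and ZNF444 were also singled out after their values were seen.

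The A/B score places a 120 kb bin on the axis from B (negative) to A (positive). limma called 20.1% of the bins of the genome higher and 22.4% lower. In 19p 0 of 35 bins rose and 9 fell, and the mean score went from -1.22 in growing to -1.35 in RIS cells. In proximal 19q 5 of 14 rose and 0 fell (-0.50 and -0.33), in distal 19q 2 of 22 rose and 2 fell, and in 7q 1 of 15 rose and 3 fell. The comparison clusters went toward A, with 6 of 10, 6 of 15 and 6 of 6 bins that rose and 0, 1 and 0 that fell. The count of 22 calls over the 4 clusters became 13 without growing replicate 2, 1 without RIS replicate 1 and 6 without RIS replicate 2.

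The genes at the ends of the scale were chosen after their values were seen. In 19p the bin of ZNF728 and ZNF730 fell from -1.05, -1.16 and -1.07 to -1.38 and -1.39 (-0.29, limma adjusted p = 0.00767), with the groups apart. In proximal 19q that of ZNF320 rose from -0.50, -0.68 and -0.45 to 0.01 and -0.23 (0.43, adjusted p = 0.0109). In distal 19q the bin of ZNF274, ZNF544 and ZNF8 rose from 0.12, 0.42 and 0.19 to 0.74 and 0.78 (0.52, adjusted p = 0.00483), and ZNF835 fell by 0.31 (adjusted p = 0.0142). ZNF274 is known to bind the 3′ ends of other zinc finger genes and to bring SETDB1 to them. In 7q ZNF92, the last gene of the cluster, rose from -0.37, -0.57 and -0.69 to 0.24 and -0.05 (0.64, adjusted p = 0.00522), whereas ZNF722, the first, fell by 0.20 (adjusted p = 0.0232). Of the other genes at cluster ends ZNF726 fell by 0.21 (adjusted p = 0.0333), and ZNF253, ZNF577, ZNF813, ZNF787 and ZNF837 did not pass the test.

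Partners of the 3 chromosome 19 clusters on all other chromosomes were mapped in 5544 bins of 400 kb. None passed limma's test (0% of the bins called; 601 were at an unadjusted p under 0.05), so what follows gives levels. The highest partners in growing cells lay beside centromeres and at chromosome ends. The bin of chromosome 1 at 143.2 Mb stood at 4.02, 4.13 and 4.08 in the growing and 4.44 and 4.69 in the RIS libraries, and that of chromosome 4 at 49.2 Mb went from 4.07 to 4.73. The first bin of chromosome 4, which holds ZNF595, ZNF718, ZNF732 and ZNF141, stood at 3.31, 3.65 and 3.19 in the growing and 4.36 and 4.52 in the RIS libraries, a difference of 1.05 (limma adjusted p = 0.398). At the other end of that chromosome the bin at 190.8 Mb, with FRG1, FRG2 and DUX4, went from 3.01 to 4.04, and DUX4 is known to lie in a repeat array that is kept silent in somatic cells.

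ZNF genes were found in 9 of the 100 highest partner bins, against 2.71% of all 5544. The 150 bins with any ZNF gene had a median level of -0.07 in growing cells and a median difference of 0.28. The 19 bins with at least 3 ZNF genes, bins of 7q among them, had a median level of 0.61 in growing cells, against -0.18 over all bins, and a median difference of 0.20, against 0.13. Their values went both ways. The bin of chromosome 12 at 133.6 Mb went from 2.04 to 2.68 and that of chromosome 1 at 247.2 Mb from -0.18 to 1.19. That of chromosome 16 at 3.2 Mb went from 0.54 to -0.23. Of single bins the largest difference upward was 2.35, on chromosome 12 at 113.2 Mb. It had 4, 2 and 5 contacts in the growing and 11 and 14 in the RIS libraries. The largest downward was -2.87, on the X chromosome at 91.2 Mb with PCDH11X, a protocadherin gene, with 9, 12 and 14 contacts against 0 and 5. Bins were kept at a mean of at least 5 contacts over the libraries. Both bins met this only through the group in which they were high, so these extremes support nothing.

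The genes of the silencing pathway that works with KRAB zinc finger proteins lie elsewhere in the genome and were read in the same fits, as a list of 23. For insulation, of 21 with a score 2 rose, CBX3, which encodes HP1-gamma (0.18, limma adjusted p = 0.00185), and SUV39H1, an H3K9 methyltransferase (0.14, adjusted p = 0.0171), and 5 fell. These were MPHOSPH8 and FAM208A, which encode subunits of the HUSH silencing complex, both by 0.49, the H3K9 methyltransferase gene EHMT1 by 0.33, PRDM9 by 0.31 and ZFP57 by 0.21. The shares, 2 and 5 of 21, stand beside 30.9% and 25% over all bins.

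For the A/B score 4 of the 23 rose and 6 fell, beside 20.1% and 22.4% over all bins. The largest rise was at ZFP57, a KRAB zinc finger gene known for keeping imprints, from -0.18, -0.15 and -0.16 to 0.53 and 0.55 (0.70, limma adjusted p = 0.000623). SUV39H1 rose by 0.45, FAM208A by 0.23 and MORC2 by 0.21. SETDB1 fell from 1.23, 1.26 and 1.31 to 0.91 and 1.03 (-0.29, adjusted p = 0.00926) and remained in A, and EHMT1, CBX5, PRDM9, DNMT1 and HDAC1 fell by 0.31, 0.29, 0.28, 0.23 and 0.23. TRIM28, whose gene lies near the end of chromosome 19, differed by -0.17 (adjusted p = 0.0914) and did not pass the test. Of the 17 list genes with a value as partners of the chromosome 19 clusters, limma called 0, as it called 0 of all partner bins.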

How the data were processed

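In situ Hi-C was read from 5 libraries of IMR90 ER:HRAS(G12V) cells, grouped by their labels as growing (3) and RIS (2). The deposited signal is a balanced contact value for each pair of 40 kb bins of hg19, made by the authors with HiC-Pro (iterative correction of valid pairs, and FastQC for read quality, per the labels and the study's methods), per library and without pooling. Both orientations of a pair summed to 200000000 in every library. Whole contacts were recovered by finding a factor for each bin, with 100% of values whole, and their totals are the depths given above, with a mean of 154232455. Balancing removes coverage differences between bins, so a bin of low coverage carries the same weight on fewer reads.

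Values were computed with Python 3.11.15, numpy 2.4.6, pandas 2.3.3 and Biopython 1.88, and drawn with matplotlib 3.10.9. Beyond 2 Mb the expected contact was smoothed over 5% of the distance on either side. Pairs were fitted with R 4.3.3 and limma 3.58.1 on log2(value + 0.5) after scaling to the mean depth and loess normalization on abundance (span 0.3, 4 iterations), with a smallest mean of 5 for 40 kb pairs, 10 for 200 kb pairs and 2 for 1 Mb pairs, Benjamini-Hochberg at 5% over all pairs. For a pair without contacts in 1 group, the log2 difference on this scale depends on the pseudocount and can be far larger than with voom. The pair of chr7:63120001 and chr7:64440001, with 1, 1 and 1 contacts in growing and 0 and 0 in RIS libraries, had -3.66 with limma and -0.85 with voom. Gene positions came from GENCODE v44 on GRCh37. The pair fits were run on simulated Poisson counts, without further variation between libraries, and the region values on these data with a planted change. Neither shows how the tests behave at the spread of these libraries.

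Named were the 4 clusters, the 3 comparison clusters and the first and last ZNF gene of each cluster. Also named were the ZNF genes in the 2 bins with the largest rise and the 2 with the largest fall in contact with other clusters. The rest were the 3 pairs with the smallest adjusted p in each fit, the 10 highest partner bins and the 5 with the largest rise and fall, and the list of 23 pathway and related genes. The clusters are defined by position, but they, the lists and the tests were picked with earlier results of these data known. Alternatives tried were other expected values, windows, bin sizes, pseudocounts, minimum values and scalings, voom, leaving out each library, the replicate number as a block, libraries of few or many duplicates, and bins without a linker match, the last chosen after seeing the data, as was voom without each library.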

Additional observations from a re-analysis of the deposited data

How the results depend on the processing

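Of the 43 region values, those of 19p with itself, with distal 19q, with 7q, with A bins and with its right flank, and of 7q with itself, with A bins and with its right flank, kept their direction under every alternative tried. Only values whose groups overlapped changed sign as libraries were left out, and the cause was not tested. As each library was left out, RIS minus growing ranged from -0.0113 to 0.0167 within proximal 19q, from -0.18 to 0.11 for 19p with proximal 19q, from -0.0309 to 0.0884 for proximal with distal 19q, from -1.25 to 0.12 for distal 19q with 7q, from -0.13 to 0.0137 for 19p with its left flank, from -0.0203 to 0.18 and from -0.10 to 0.0186 for proximal 19q with A and B bins, from -0.0729 to 0.10 for distal 19q with A bins and from -0.91 to 0.19 percentage points for the share of contacts within 19p.

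With the expected contact taken from all chromosomes, the differences were -0.00898 within proximal 19q, -0.37 for proximal with distal 19q, -0.20 and -0.0844 for 19p and distal 19q with B bins, -0.32 and -0.45 for proximal and distal 19q with A bins and -0.0652 for distal 19q with its left flank. Without bins that hold a linker match they were -0.16 and 0.13 within proximal and distal 19q and 0.18 for distal 19q with 7q. Without the tenth of bins with the lowest coverage they were 0.00926 within distal 19q, 0.46 for 19p with its left flank, and -0.0181 and -0.0568 for proximal and distal 19q with A bins. From distances of 3 bins upward the value within proximal 19q was -0.00205. Among libraries of few duplicates it was -0.0118, with -0.0518 for proximal with distal 19q and 0.0046 for proximal 19q with its left flank. Among libraries of many duplicates the values were 0.23 for 19p with proximal 19q, 0.0911 for distal 19q with 7q, -0.18 and 0.0275 for proximal 19q with A and B bins and -0.25 for distal 19q with A bins.

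The replicate numbers 1 and 2 are shared by both groups, but nothing ties them, and same-numbered libraries deviated together unevenly (r of 0.35 and 0.65 over 30 cluster values, and of 0.11 and -0.20 for insulation). With the replicate number as a block, 40 of the 43 region values kept their direction and 3 did not, at -0.0113 within proximal 19q, -0.0309 for proximal with distal 19q and 0.00907 for 19p with its left flank. The block left 0 calls among 40 kb pairs and 0 among 200 kb pairs, and gave 106 calls for insulation and 30 for the A/B score.

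For pairs of 40 kb bins the limma count of 15 became 0 with a pseudocount of 2, 3 with a doubled minimum, 28 with voom and 0 to 0 as each library was left out. For pairs of 200 kb bins the count of 5 became 3 with scaling to the total only, 11 with a pseudocount of 2, 15 with a doubled minimum, 38 with voom and 0 to 9 as each library was left out, where voom ranged from 9 to 39. The insulation count of 91 became 142 with a window of 1000 kb and ranged from 46 to 105, and the A/B count of 22 became 14 with bins of 200 kb and ranged from 1 to 24 as each library was left out. A single pair of bins of 19p and 7q held 8 contacts at most, so depth limits the contact of 19p with 7q to sums over the clusters, and an absent contact in RIS replicate 1, the shallowest library, is a count of 0 and not an absence.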
